A study of Mus musculus with 6 samples.

Results

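The HSP70 family was described by 10 genes, taken as every row of the count and FPKM tables whose symbol was Hspa1a, Hspa1b, Hspa1l, Hspa2, Hspa4, Hspa4l, Hspa8, Hspa9, Hspa14 or Hsph1, out of 22913 genes in the count table. All 10 were found, and 9 of them had enough counts to be tested. Hspa1l did not. The cells were HL-1, a line derived from mouse atrial heart muscle, and polyadenylated RNA was sequenced from 6 libraries. The control group held 3 libraries of cells with a control plasmid, and the HSPA1A group held 3 libraries of cells transfected with a plasmid for overexpression of HSPA1A, the stress-inducible HSP70. The plasmid was brought in with a lipid reagent, and transfected cells were harvested after 48 h. The labels give no transfection efficiency and do not say whether replicates came from separate cultures, so every p-value here rests on the scatter of these libraries alone, and that scatter may be technical.

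HSP70 proteins are chaperones that bind exposed hydrophobic stretches of other proteins and release them in a cycle driven by ATP. J-domain proteins bring substrates and trigger ATP hydrolysis, and nucleotide exchange factors, among them the related HSP110 proteins, reset the cycle by releasing ADP. Some family members are made all the time, others are switched on by heat shock factor 1 (HSF1) when proteins misfold, and heart muscle induces the latter under heat, ischaemia and load.

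The libraries held between 23849656 and 26897086 read counts. HSPA1A replicate 2 lay apart from HSPA1A replicates 1 and 3. On the first principal component, with 34.3% of the variance, it lay at -15.1, on the side of the control libraries (-8.27 to -4.33). HSPA1A replicates 1 and 3 lay on the other side, at 15.9 and 18.3. On the second component, with 21.1%, it lay at -18.2, HSPA1A replicates 1 and 3 at -4.59 and -2.49, and the control libraries between 6.22 and 9.58. Results are therefore given with all 6 libraries and without HSPA1A replicate 2. This library was chosen from the same values that are then compared, and leaving it out can narrow the scatter within the HSPA1A group. Calls and p-values of the fit without it are thus descriptive and do not stand as tests. HSPA1A replicate 2 also had the highest read total of the 6, and HSPA1A replicate 1 the lowest. The noncoding transcript Yam1 took 1.58% of counts in HSPA1A replicate 2 and 2.70% and 2.53% in replicates 1 and 3, against 1.18% to 1.86% in the control libraries. The part of these differences in the results was not tested. Of 18 atrial muscle markers, 16 were in the FPKM table and 6 averaged at least 1 FPKM, among them Des, Atp2a2, Gja1 and Tnnt2, while Actc1, Ryr2 and Ttn averaged at most 0.012 FPKM. Summed atrial marker levels were 364.9 to 375.2 FPKM in control and 310.1 to 356.0 FPKM in HSPA1A libraries. Most of the sum came from Des and Atp2a2, at means of 188.2 and 84.3 FPKM, so it does not measure atrial identity. The sums did not overlap between groups, nor did Des, at 193.08 to 205.85 and 166.59 to 179.52 FPKM. Atp2a2, Gja1 and Tnnt2 did overlap. In scaled counts 14.5% of all tested genes had no overlap, and the difference in the sums was not tested. The 8 fibroblast markers summed to 151.6 to 155.4 FPKM in control and 132.2 to 161.8 FPKM in HSPA1A libraries. They were led by Col3a1 and Col1a2, with Lum and Thy1 at 0.0033 FPKM each. Smooth muscle markers summed to 23.3 to 26.8 and 20.2 to 27.4 FPKM, mostly from Acta2 at 23.4 FPKM, with Myh11 at 0.0083 FPKM. Macrophage and leukocyte markers summed to 11.6 to 14.4 and 10.5 to 17.2 FPKM. Cd14 and Cd68 made up most of that, at 9.44 and 3.42 FPKM, with Ptprc at 0.0033 FPKM. Endothelial markers summed to at most 0.15 FPKM.

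The first question was how much of each member the cells contained. Levels between genes are compared as deposited FPKM, which are scaled by gene length and library size. The mitochondrial HSP70 gene Hspa9 was the most abundant, at 538.6 ± 11.5 FPKM (SD, n = 6 libraries of both groups), and made up 59.3% to 65.2% of the summed FPKM of the 10 members in each library. The constitutive cytosolic gene Hspa8 followed at 193.5 ± 27.6 FPKM, with 19.1% to 26.3% of the sum. The HSP110 gene Hspa4 stood at 74.6 ± 3.7 FPKM. Hspa14, Hsph1 and Hspa4l formed a middle tier at 22.5 ± 0.9, 16.9 ± 1.0 and 13.3 ± 1.3 FPKM. The last 4 genes were low: Hspa2 at 2.55 ± 0.49, Hspa1b at 0.952 ± 0.142, Hspa1a at 0.177 ± 0.052 and Hspa1l at 0.140 ± 0.098 FPKM.

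Each neighbour in this order was separated from the next by more than the spread of the libraries, except Hspa1a and Hspa1l, whose ranges of 0.12 to 0.23 and 0.03 to 0.31 FPKM overlapped. The closest separated neighbours were Hsph1 and Hspa4l, 1.27-fold apart, and Hspa14 and Hsph1, 1.33-fold apart. With CPM (counts scaled to a common library size) per kilobase of all annotated exons in place of FPKM, 2 of the 10 ranks changed, because Hsph1 moved ahead of Hspa14. The steps from Hspa1b to Hspa1a, 5.39-fold, and from Hspa4l to Hspa2, 5.21-fold, were the widest. The step from Hspa1b to Hspa1a may depend on how reads that match both of these near-identical genes were assigned. Hspa1a, the mouse counterpart of the overexpressed gene, was thus among the least abundant family transcripts in these cells.

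**Figure D1:**
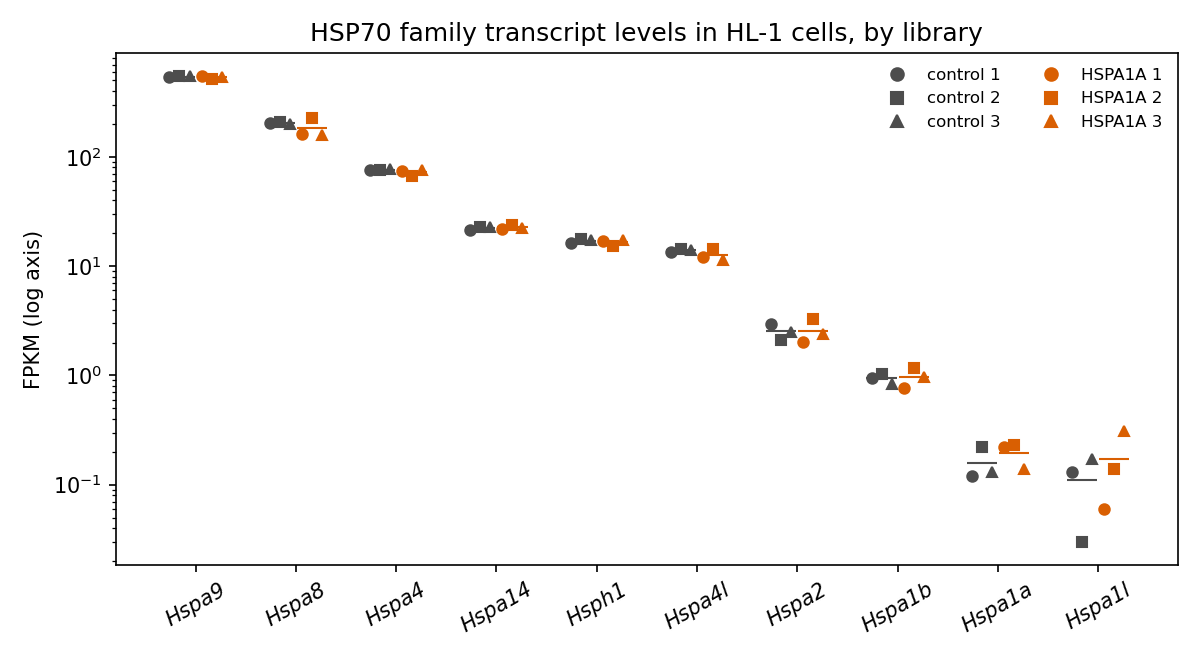
Deposited FPKM (log axis) of the 10 HSP70 family genes in each library, with control libraries in grey and HSPA1A libraries in orange, marker shape for the replicate number and a short line at each group mean. Levels run from Hspa9 at 516.49 to 546.47 FPKM down to Hspa1l at 0.03 to 0.31 FPKM, and the order of the genes is the same in both groups except between Hspa1a and Hspa1l in single libraries.

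The central comparison asked whether any member differed between HSPA1A and control cells. Of the 9 tested members 0 were called higher and 0 lower, at a threshold of 0.05 on the adjusted p of the quasi-likelihood test in edgeR, with Benjamini-Hochberg adjustment over all 12827 tested genes. The calls over all genes were 0.0234% higher and 0.156% lower, 0.179% in all. At an unadjusted p under 0.05 there were 0 members, where 8.59% of all genes passed. DESeq2, which called 0.499% of all genes, and limma-trend on FPKM, which called 16 genes, also called 0 members. The members' log2 fold changes ran from -0.10 for Hspa8 to 0.39 for Hspa1a, with a median of 0.038, beside a median of 0.0029 over all tested genes. The 95% intervals allowed changes between 0.97-fold and 1.14-fold for Hspa14, the narrowest interval, between 0.94-fold and 1.12-fold for Hspa9 and between 0.77-fold and 2.24-fold for Hspa1a, which had 86 reads in all.

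**Figure D2:**
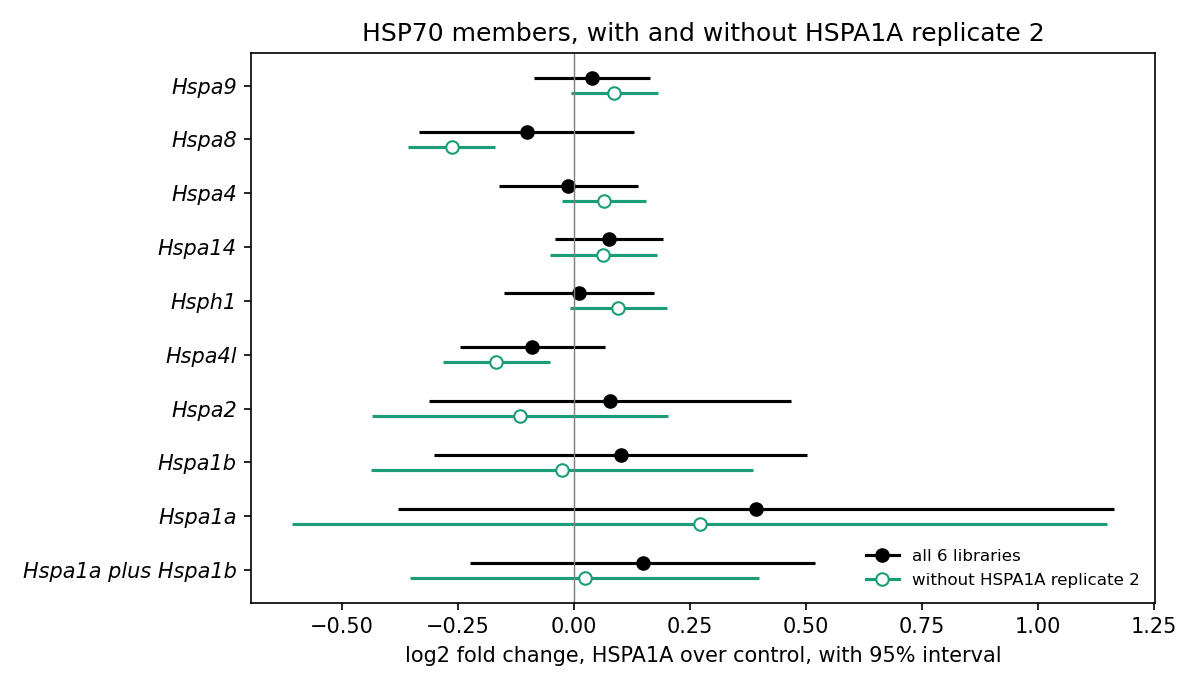
Log2 fold change of HSPA1A over control with its 95% interval for the 9 tested members and for the summed counts of Hspa1a and Hspa1b, with all 6 libraries (black) and without HSPA1A replicate 2 (green, open). With all libraries every interval includes 0. Without HSPA1A replicate 2 the intervals of Hspa8 (-0.36 to -0.17) and Hspa4l (-0.28 to -0.052) lie below 0.

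Hspa1a and Hspa1b encode the inducible HSP70 and are the first members to consider, since HSPA1A is the gene on the plasmid. Mouse Hspa1a (ENSMUSG00000091971.3) lies on the minus strand at chr17:34969190-34972156 of GRCm38 and Hspa1b (ENSMUSG00000090877.3) on the same strand at chr17:34956436-34959238. Their coding sequences of 1923 and 1926 bases were 99.4% identical over an aligned length of 1926 bases. Before the first gap, at 1876 bases, they differed by 6 single bases (A156G, T795G, A921G, A1380G, A1416G and A1629G, with the base of Hspa1a first and positions counted from the A of the start codon). Of the 2818 windows of 150 bases, the length of 1 read, in the Hspa1a transcript, 39.7% also occurred in Hspa1b or Hspa1l, and of the Hspa1b windows 40.5% occurred in Hspa1a or Hspa1l. Reads were paired, so a mate that falls elsewhere may also tell the genes apart, and these shares count each read alone. The next stretch holds coding bases 784 to 933 of Hspa1a (chr17:34970993-34971142) and Hspa1b (chr17:34958075-34958224), from GENCODE M21 transcripts, coding strand, 5′ to 3′. It is shown because a read on it, taken without its mate, can be assigned only by the 2 bases in capitals, T795G and A921G.
Hspa1a: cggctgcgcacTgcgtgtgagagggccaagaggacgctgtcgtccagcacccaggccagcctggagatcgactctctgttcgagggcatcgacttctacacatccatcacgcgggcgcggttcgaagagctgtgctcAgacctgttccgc
Hspa1b: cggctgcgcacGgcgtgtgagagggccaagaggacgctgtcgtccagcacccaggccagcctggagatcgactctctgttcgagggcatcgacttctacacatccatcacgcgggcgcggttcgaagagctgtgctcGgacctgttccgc

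Hspa1a stood at 0.376, 0.682 and 0.416 CPM in control replicates 1 to 3 and at 0.726, 0.739 and 0.455 CPM in HSPA1A replicates 1 to 3 (CPM scaled by edgeR's TMM factors, here and below). The groups overlapped, with control replicate 2 above HSPA1A replicate 3. Exact 95% Poisson intervals, which cover counting error only, ran from 0.180 to 0.691 CPM for the lowest library and from 0.451 to 1.14 CPM for the highest, so these also overlapped. The log2 fold change was 0.39 ± 0.35 (SE, n = 3 each), and 0.27 ± 0.41 without HSPA1A replicate 2. Leaving out control replicate 1 gave 0.23 and leaving out control replicate 2 gave 0.69, and on log2(FPKM + 1), a scale that understates changes of low genes, it was 0.049. Hspa1b stood at 2.82, 3.05 and 2.50 CPM in control and at 2.39, 3.47 and 3.06 CPM in HSPA1A libraries. The highest and the lowest Hspa1b values were both in the HSPA1A group, in replicates 2 and 1, and the log2 fold change was 0.10 ± 0.18 (SE), or -0.026 ± 0.194 without HSPA1A replicate 2.

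Because reads may be split arbitrarily between the genes, their counts were also added. The sums were 85, 93 and 77 reads in control and 73, 114 and 85 reads in HSPA1A libraries. The sum's log2 fold change was 0.15 ± 0.17 (SE, 95% interval -0.22 to 0.52, adjusted p = 0.838, edgeR), which allows between 0.86-fold and 1.43-fold. Without HSPA1A replicate 2 it was 0.023 ± 0.176 (SE). Hspa1a took 11.8% to 18.3% of the reads of both genes in control libraries and 12.9% to 23.3% in HSPA1A libraries. The 95% exact binomial intervals, which cover counting error only, all overlapped, from 5.79% to 20.6% in control replicate 1 and from 14.2% to 34.6% in HSPA1A replicate 1. The labels call the gene on the plasmid human, and how many reads of a plasmid transcript would be placed on these mouse genes was not tested. The predicted gene Gm20481 overlaps Hspa1a on the other strand and had 2 reads over all libraries.

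The sequences just upstream of both genes were nearly the same as well, although the deposited FPKM of Hspa1b was 5.39 times that of Hspa1a. That ratio may depend on how reads that match both genes were assigned, and Hspa1a had 86 reads in all. Over the 250 bases before the annotated start, 3 bases differed (C44T, T47C and T249G, with Hspa1a first and positions counted from the first base printed). The heat shock element bound by HSF1 is built from inverted repeats of the unit NGAAN, and 2 inverted units were searched for here as GAANNTTC or TTCNNGAA, each of which reads the same on both strands. Promoter sequences from RefSeq (GRCm38.p6) matched 8 of the 10 members, all but Hspa8 and Hspa9. Of these 8, Hspa1a, Hspa1b and Hsph1 held such a match in the 250 bases before a start, compared with 12.8% of all 32851 promoter entries. A match is a string of letters and not a measured binding site. The upstream sequences of Hspa1a and Hspa1b are shown 5′ to 3′ on the minus strand, with the match in capitals, because they carry the same match in nearly the same surroundings: Hspa1a at chr17:34972157-34972406 and Hspa1b at chr17:34959239-34959488. The match, GAAGATTC, lies 104 bases before the start of each, and that of Hsph1, TTCTCGAA, lies 54 and 33 bases before the 2 starts given for it.
Hspa1a: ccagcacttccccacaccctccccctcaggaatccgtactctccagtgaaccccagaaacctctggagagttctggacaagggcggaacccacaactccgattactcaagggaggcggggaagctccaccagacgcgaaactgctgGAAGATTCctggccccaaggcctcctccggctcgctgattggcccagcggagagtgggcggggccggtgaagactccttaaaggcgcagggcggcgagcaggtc
Hspa1b: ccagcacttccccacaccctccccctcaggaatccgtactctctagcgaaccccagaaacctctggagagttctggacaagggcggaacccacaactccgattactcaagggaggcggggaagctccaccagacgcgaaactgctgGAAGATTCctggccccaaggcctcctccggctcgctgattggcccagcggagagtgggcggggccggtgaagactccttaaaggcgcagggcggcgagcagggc

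Of these 3 genes, Hspa1a and Hspa1b were highest in HSPA1A replicate 2, while Hsph1 was lowest there. The Poisson 95% intervals of the lowest and the highest library overlapped for Hspa1a and for Hspa1b (1.81 to 3.10 and 2.80 to 4.25 CPM for the latter). Whether the 3 genes share a pattern across libraries could therefore not be told from these counts.

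Hspa1l and Hspa2 are best known from male germ cells. Hspa1l (chr17:34972703-34979285, plus strand) starts 547 bases from the start of Hspa1a, in the opposite direction, and overlaps the antisense gene Gm10501. It had 9, 2 and 12 reads in control and 4, 10 and 21 reads in HSPA1A libraries, the widest relative spread of the family. The groups overlapped between 4 and 12 reads, and HSPA1A replicate 3 lay above every control library. Those counts were too low for the test on 6 libraries, and with no filter on low counts its log2 fold change was 0.66 ± 0.48 (SE, adjusted p = 0.780, edgeR). Hspa2 (chr12:76404176-76406938) stood at 7.96, 5.61 and 6.70 CPM in control and at 5.72, 8.86 and 6.75 CPM in HSPA1A libraries. The groups interleaved, HSPA1A replicate 2 was the highest library, and the log2 fold change of 0.077 ± 0.176 (SE) became -0.12 ± 0.15 without it.

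Hspa8 encodes the constitutive cytosolic HSP70, which also strips clathrin from vesicles and delivers proteins to the lysosome. It lies on the plus strand at chr9:40800984-40810087, and snoRNA genes of the Snord14 group lie inside it. It stood at 526.4, 518.2 and 504.0 CPM in control and at 432.9, 583.7 and 426.0 CPM in HSPA1A libraries. HSPA1A replicates 1 and 3 were below every control library and HSPA1A replicate 2 was above every one, so the SD was 89.1 CPM in the HSPA1A group against 11.3 CPM in the control group. With all 6 libraries the log2 fold change was -0.10 ± 0.10 (SE, 95% interval -0.33 to 0.13) and missed the threshold (edgeR adjusted p = 0.822). It shrank to -0.032 without HSPA1A replicate 1 and to -0.021 without HSPA1A replicate 3 (adjusted p = 0.974 and 0.994, edgeR). Without HSPA1A replicate 2, Hspa8 was called lower, at 0.83-fold, with a log2 fold change of -0.26 ± 0.04 (SE, adjusted p = 0.00186). It was the 1 of 10 members called in that fit, which called 4.94% of 12955 genes lower and 10.2% in either direction. At an unadjusted p under 0.05 that fit had 2 members, Hspa8 and Hspa4l, where 24.8% of all genes passed. The library left out was chosen from these data, so the p-values of that fit are descriptive only.

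A large part of the Hspa8 sequence has copies elsewhere. Of the 2245 windows of 150 bases in its main transcript, 55.4% were found unchanged in the processed pseudogenes Gm15459, Gm8355, Gm6210 or Gm7232, and 1093 of them in Gm15459 on chromosome 5. In the deposited counts Gm15459 had 4846, 4655 and 4820 reads in control and 3578, 5941 and 3738 reads in HSPA1A libraries. That is 34.6% to 37.6% of the Hspa8 reads in every library, so Gm15459 was high and low in the same libraries as Hspa8. Gm8355, with 486 shared windows, had 26 reads in all. The FPKM of Hspa8 leaves the Gm15459 reads out, and whether these came from Hspa8 transcripts was not tested. With the counts of Hspa8 and Gm15459 added, a choice made after their values were seen, the libraries stood at 708.4, 704.8 and 686.4 CPM in control and at 585.6, 803.1 and 580.7 CPM in the HSPA1A group. The log2 fold change of the sum was -0.092 ± 0.108 (SE), and -0.26 ± 0.04 (adjusted p = 0.00188, edgeR) without HSPA1A replicate 2, nearly the values of Hspa8 alone.

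By the Pearson correlation of log2 CPM over the 6 libraries, the 3 genes with a profile most like that of Hspa8 were Ptk2b, Adamtsl4 and Fam13c, each at r above 0.99 (0.999, 0.999 and 0.998). These are descriptions over 6 libraries that share HSPA1A replicates 1 and 3 at the bottom and HSPA1A replicate 2 at the top. Such profiles were common, since 460 of the 9321 genes compared had r above 0.9.

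Hspa9 encodes mitochondrial HSP70, which pulls imported proteins into the matrix, folds them and serves iron-sulphur cluster assembly. Its gene lies at chr18:34937414-34954357 and, like Hspa2, Hspa4, Hspa4l and Hsph1, shared 0 windows of 150 bases with another gene. It stood at 1747, 1747 and 1755 CPM in control and at 1854, 1679 and 1856 CPM in HSPA1A libraries. The coefficient of variation was 0.291% among control libraries and 5.67% among HSPA1A libraries, where HSPA1A replicates 1 and 3 were above and replicate 2 below every control library. Counting error alone gives 0.471% at the mean read count of Hspa9, so the control libraries lay closer together than counting error would give on average. The log2 fold change was 0.038 ± 0.056 (SE) and 0.087 ± 0.044 without HSPA1A replicate 2, neither past the test. The ratio of Hspa9 to Hspa8 in FPKM was 2.61, 2.65 and 2.73 in control libraries, 3.36 and 3.42 in HSPA1A replicates 1 and 3, and 2.26 in HSPA1A replicate 2. The mitochondrial and the constitutive cytosolic member thus took shifted shares of the family total, in opposite directions in HSPA1A replicate 2 and in HSPA1A replicates 1 and 3. These members made up most of that total, so their shares tend to move against each other. In HSPA1A replicates 1 and 3 the FPKM of Hspa9 (544.5 and 543.1) lay inside its control range, while that of Hspa8 (161.9 and 158.7) lay below its own.

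Hspa14 encodes an HSP70-like protein found at the ribosome with the J-domain protein of Dnajc2. The deposited identifier, ENSMUSG00000051396.12, is named Gm45902 in GENCODE M21 (chr2:3504527-3512790) and overlaps the gene named Hspa14 there on the same strand, so reads of these annotated genes may not be separable. It stood at 41.1, 43.2 and 42.9 CPM in control and at 43.6, 45.5 and 44.8 CPM in HSPA1A libraries. On this scale it was the 1 tested member whose groups did not overlap, at 43.6 CPM in the lowest HSPA1A and 43.2 CPM in the highest control library. Of all tested genes 14.5% had no overlap, 7.3% with the HSPA1A group higher. In the deposited FPKM the groups of Hspa14 did overlap, at 21.40, 22.95 and 22.64 in control and 21.75, 23.80 and 22.28 in HSPA1A libraries, and the log2 fold change on log2(FPKM + 1) was 0.017. The log2 fold change of 0.076 ± 0.053 (SE, adjusted p = 0.732, edgeR) did not pass the test. Its coefficient of variation within a group, 2.67% in control and 2.20% in HSPA1A libraries, did not widen in the HSPA1A group as that of the other abundant members did.

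Hspa4, Hspa4l and Hsph1 encode the HSP110 proteins, large relatives of HSP70 that act as its nucleotide exchange factors and help to dissolve aggregates. Their coding sequences were 61.9% to 66.0% identical to each other. Hspa4 (chr11:53259814-53300457) stood at 372.2, 370.1 and 378.7 CPM in control and at 386.7, 331.1 and 393.7 CPM in HSPA1A libraries. HSPA1A replicate 2 was its lowest library and HSPA1A replicates 1 and 3 its highest, and the log2 fold change of -0.012 ± 0.067 (SE) was 0.065 ± 0.043 without replicate 2. Hsph1 (chr5:149614287-149636376), itself a heat-inducible gene, stood at 73.6, 78.7 and 77.5 CPM in control and at 80.9, 68.2 and 82.4 CPM in HSPA1A libraries. It had the same arrangement as Hspa4, with a log2 fold change of 0.010 ± 0.073 (SE), or 0.095 ± 0.049 without HSPA1A replicate 2. Hspa4l (chr3:40744495-40796103) went the other way, at 53.2, 55.3 and 53.8 CPM in control and at 49.8, 56.2 and 46.4 CPM in HSPA1A libraries. Its log2 fold change was -0.090 ± 0.070 (SE), and without HSPA1A replicate 2 it was -0.17 ± 0.05 with an adjusted p of 0.0638 in edgeR's quasi-likelihood test, short of the threshold, while without HSPA1A replicate 3 it was -0.027.

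Set side by side, 5 of the 9 tested members (Hspa8, Hspa4l, Hspa9, Hspa4 and Hsph1) had HSPA1A replicates 1 and 3 on one side of all control libraries and HSPA1A replicate 2 on the other. This arrangement was looked for after the values had been seen, and 14.1% of all 12827 tested genes had it. Its count among the members depended on the scaling. On library totals without TMM factors it held for 3 members, Hspa8, Hspa4l and Hspa9 (13.3% of all genes), and in the deposited FPKM for Hspa8 alone (12.8% of all genes). In FPKM Hspa9 stood at 535.5, 546.5 and 545.6 in control and at 544.5, 516.5 and 543.1 in HSPA1A libraries, so HSPA1A replicates 1 and 3 lay inside the control range and replicate 2 below it. Hspa8 in FPKM stood at 205.6, 206.5 and 199.5 in control and at 161.9, 228.7 and 158.7 in HSPA1A libraries, outside the control range on every scale.

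**Figure D3:**
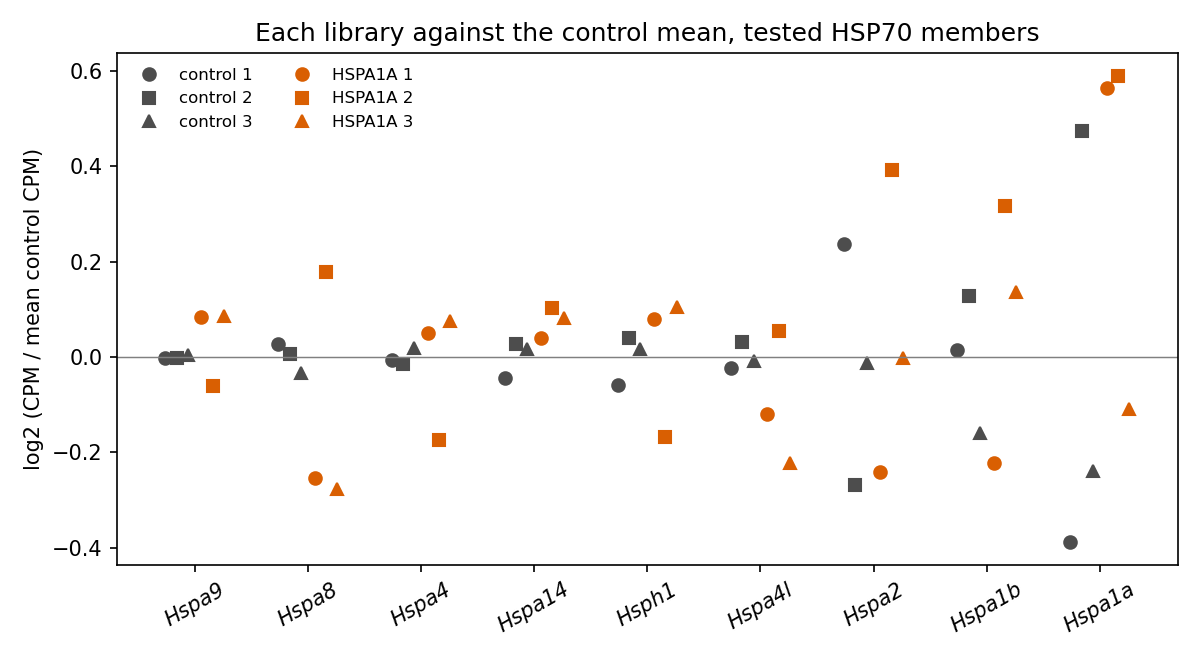
Log2 of each library's TMM-scaled CPM over the mean control CPM for the 9 tested members, ordered by mean FPKM from Hspa9 to Hspa1a, with control libraries in grey, HSPA1A libraries in orange and marker shape for the replicate number. HSPA1A replicate 2 (orange square) lies opposite to HSPA1A replicates 1 and 3 for Hspa9, Hspa8, Hspa4, Hsph1 and Hspa4l, while Hspa14 keeps its 3 HSPA1A libraries together and the low genes Hspa2, Hspa1b and Hspa1a scatter.

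On library totals without TMM factors, the 10 members together held 0.284% to 0.287% of all counts in control libraries and 0.278% to 0.281% in HSPA1A libraries. Their summed FPKM was 871.9, 887.9 and 880.4 in control and 835.6, 870.7 and 832.7 in HSPA1A libraries. On both measures every HSPA1A library lay below every control library, though in FPKM the closest were 870.7 and 871.9. Of all tested genes 14.5% had no overlap of the groups in TMM-scaled CPM. The family total was not tested, and its share was not computed with TMM factors, on which its direction may depend. These factors were 1.007, 1.017 and 1.014 in control and 0.983, 1.008 and 0.973 in HSPA1A libraries. A factor below 1 raises a scaled share, so the order of the groups given here need not hold on the TMM scale. The family's total differed little between libraries next to the shifts of single members, the extremes of Hspa8 being 1.37-fold apart in TMM-scaled CPM.

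The genes that work with HSP70 were counted from 7 fixed lists. Some lists share genes, among them Dnajc15, Grpel1, Dnajb4 and Fkbp4, so the counts of different lists are not independent. None of the genes in any list was called by edgeR's quasi-likelihood test, by DESeq2 or by limma-trend on FPKM, where edgeR called 0.179% of all tested genes. Beside the list counts at an unadjusted p under 0.05 that follow, 8.59% of all tested genes had one. Among HSP70-type genes outside the 10, the endoplasmic reticulum HSP70 gene Hspa5 was the most abundant, at 2083 ± 192 FPKM (SD, n = 6), above Hspa9, with a log2 fold change of -0.078 ± 0.082 (SE). Its large relative Hyou1 stood at 91.8 ± 12.7 FPKM and the divergent Hspa12a at 1.18 ± 0.15 FPKM. Of the 4 tested genes in this list 0 had an unadjusted p under 0.05, and their median log2 fold change was -0.073.

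Of 36 tested J-domain cochaperone genes 3 had an unadjusted p under 0.05, all with positive values, near the 8.59% of all genes, and the median log2 fold change was 0.036. The list's smallest p-values were those of Dnajc15, of the mitochondrial import motor, with a control mean of 45.4 ± 3.1 CPM and an HSPA1A mean of 54.2 ± 7.6 CPM, and of Dnajb4, a cytosolic member, with means of 82.0 ± 0.8 and 89.5 ± 4.3 CPM (SD, n = 3 each). Dnajc8 and Dnajb11 were the most abundant, at 121.3 ± 6.3 and 73.7 ± 6.9 FPKM. Among 10 exchange factors outside the family, 2 had an unadjusted p under 0.05: the mitochondrial factor gene Grpel1, the partner of Hspa9, at a log2 fold change of 0.19 ± 0.08, and Bag6, which sorts faulty membrane proteins, at -0.14 ± 0.05 (SE). The median of these 10 was 0.039, and Bag1 was the most abundant at 127.2 ± 3.9 FPKM.

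Of 19 genes that pass clients from HSP70 to HSP90 or mark them for degradation, 2 had an unadjusted p under 0.05, the HSP90 cochaperone genes Fkbp5 and Fkbp4, at log2 fold changes of -0.17 ± 0.05 and -0.14 ± 0.06 (SE). The list's median was -0.012. Its most abundant genes were Hsp90b1, the HSP90 of the endoplasmic reticulum, at 1284 ± 160 FPKM, and Hsp90ab1, the constitutive cytosolic HSP90, at 609.1 ± 65.0 FPKM. The 20 HSF1 target genes outside the family had a median of -0.016, with 2 at an unadjusted p under 0.05, Dnajb4 and Fkbp4, and Ubb among the most abundant at 658.7 ± 61.3 FPKM. Of 5 tested heat shock factors and regulators, 3 had an unadjusted p under 0.05. Hsf1, the main heat shock factor gene, stood at a log2 fold change of -0.18 ± 0.05, Hsf2 at 0.18 ± 0.06, and Hsbp1, which encodes a small protein that binds heat shock factors, at 0.13 ± 0.05 (SE), and each of these 3 had no overlap between the groups. Over all tested genes 8.59% had an unadjusted p under 0.05 and 14.5% had no overlap. The median of these 5 was 0.13.

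Among 14 mitochondrial partners of Hspa9, 2 had an unadjusted p under 0.05, Dnajc15 and Grpel1, and the median log2 fold change was 0.086 with 12 of 14 values positive. Over all tested genes 8.59% had such a p and 51.0% of values were positive. The chaperonin genes Hspe1 and Hspd1 were the most abundant, at 382.1 ± 47.0 and 256.3 ± 12.5 FPKM, with log2 fold changes of 0.17 ± 0.12 and -0.019 ± 0.064 (SE). Without HSPA1A replicate 2, 5 of these 14 were called higher and 0 lower, where that fit called 5.27% of all genes higher. They were Hspe1 (log2 fold change 0.32), Dnajc15 (0.37), Grpel1 (0.29), Grpel2 (0.26) and Pam16 (0.23), the last 2 and the genes in the next sentence named after their values were seen. The same fit called Hsf2 higher (0.23), and Hsf1 (-0.17), Bag6 (-0.17) and Hsp90ab1 (-0.21) lower, the last beside Hspa8 at -0.26. It also called Cacybp, Ptges3, Ahsa1, Dnajc8 and Dnajc9 higher, at 0.15 to 0.31.

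**Figure D4:**
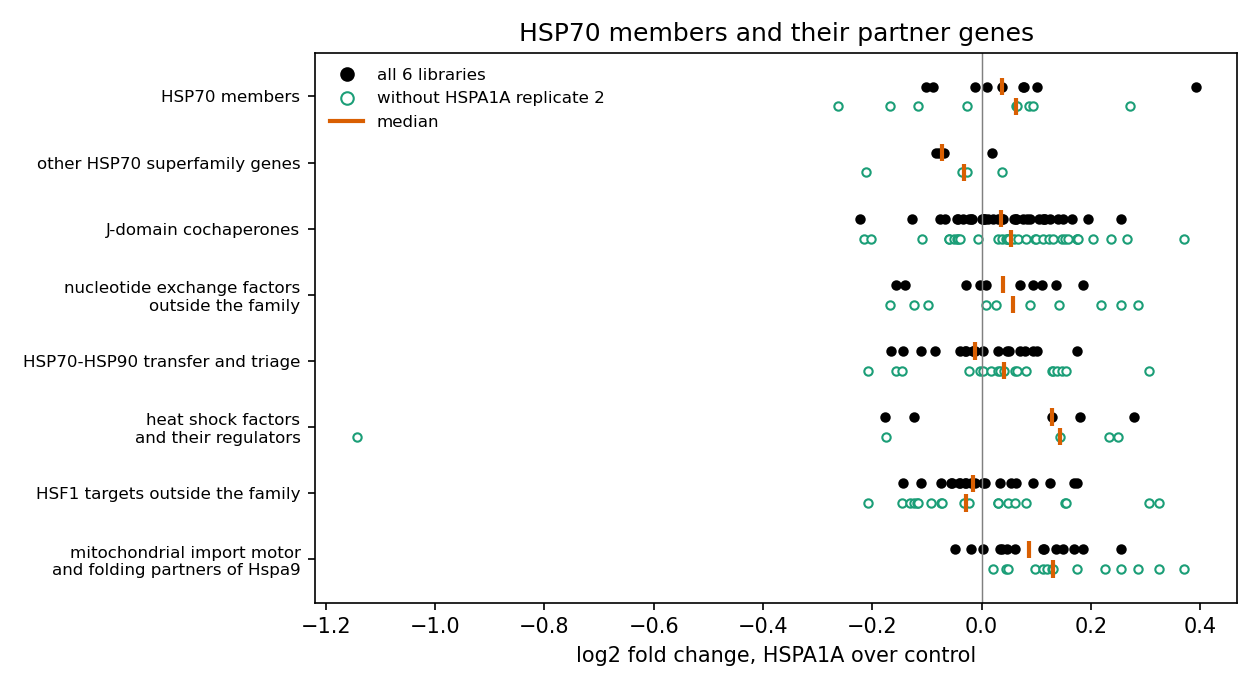
Log2 fold change of HSPA1A over control for the tested HSP70 members and for each list of partner genes, 1 point per gene, with all 6 libraries (black) and without HSPA1A replicate 2 (green, open), and the median as an orange bar. Medians lie between -0.073 and 0.13 with all libraries, and the mitochondrial partners of Hspa9 have a median of 0.13 without HSPA1A replicate 2, where the far point to the left among the heat shock factors is Hsf2bp at -1.14.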

How the data were processed

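RNA from 6 libraries was sequenced as paired reads of 150 nt from a stranded kit, per the labels' protocols. bcl2fastq, TopHat2, edgeR and the build GRCm38 are listed, without versions or roles, in the submitters' processing notes. Not given in the sources used here were the counter, its strand setting and its handling of reads with several alignments. The authors' deposited tables hold whole read counts per gene and FPKM, with 2 decimals. Each table held 6 sample columns, and 0 were unused.

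Counts were normalised by TMM in edgeR 4.0.16 (R 4.3.3), kept by filterByExpr (minimum count 10, minimum total 15) and compared by the quasi-likelihood test without covariates, with Benjamini-Hochberg adjustment over all tested genes and a threshold of 0.05. limma 3.58.1 (log2 of the deposited FPKM plus 1 or 0.1) and DESeq2 1.42.0 served as alternatives. The fit was tested on simulated data. Shared windows and coding identity came from GENCODE M21 transcripts with Biopython 1.88.

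The members and lists were chosen with earlier results of these data known. The naming rule took all members, each list's called genes, its 2 smallest p-values and its 2 highest FPKM, and the 3 genes most like Hspa8 with at least 5 CPM and no clone name.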

Additional observations from a re-analysis of the deposited data

How the results depend on the processing

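The members' calls changed under 1 alternative: without HSPA1A replicate 2, 1 member (Hspa8) was called lower, so the number called lower ran from 0 to 1 as single libraries were left out, and 0 were called higher throughout. The summed counts of Hspa1a and Hspa1b kept a positive log2 fold change, between 0.023 and 0.25 as single libraries were left out, and could not be fitted under the 5 CPM filter. Over all genes, 3 were higher and 20 lower, and these counts ran from 0 to 683 and from 10 to 640 as single libraries were left out, the upper ends without HSPA1A replicate 2. Higher and lower counts were 94 and 111 with no filter on low counts and 26 and 38 with DESeq2. RLE size factors, library totals alone and the 5 CPM filter each gave 1 higher. On FPKM, limma-trend gave 13 lower with a pseudocount of 0.1, and 5 higher and 10 lower with a pseudocount of 1 and no filter. The cause was not tested.

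Sign changes were seen for Hsph1, Hspa9, Hspa2, Hspa4 and Hspa1b, as far as -0.12 for Hspa2, which was 0.077 with all 6 libraries. Hsph1 was -0.027 on library totals alone, -0.048 on FPKM plus 1 with or without the filter and -0.051 on FPKM plus 0.1, and ran from -0.038 to 0.095 as single libraries were left out. Hspa9 was -0.021 in each FPKM fit. With single libraries left out, Hspa8 ran from -0.26 to -0.021, Hspa1a from 0.23 to 0.69, Hspa4l from -0.17 to -0.027, Hspa1b from -0.026 to 0.23, Hspa2 from -0.12 to 0.21 and Hspa4 from -0.057 to 0.065.

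With the replicate number as a block, 13 genes were lower and 0 members were called. The numbers are shared by name only: same-numbered libraries' deviations correlated at -0.10, -0.0015 and 0.085, and control replicate 1 correlated best with HSPA1A replicate 2 (0.091).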
